A study of Mus musculus with 15 samples.

Results

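The liver transcriptome of Fkbp5-knockout (KO) mice on an ethanol diet that ended with a binge dose was compared with that of KO mice on a control diet. The comparison holds 7 of the 15 liver RNA libraries of the series, 4 from KO ethanol mice and 3 from KO control mice, grouped by sample title, and covers all genes of the deposited table. The mice were Fkbp5-/- on a C57BL/6 background. Ethanol mice followed the NIAAA chronic-plus-binge model, with a liquid diet in which ethanol was raised to 5% and then kept for 10 days, and with a final gavage of 5 g/kg ethanol. Control mice received the liquid control diet and a gavage of maltose. All livers were collected 9 h after the gavage and snap-frozen, and total RNA was sequenced on an Illumina NextSeq instrument. The deletion is carried by both groups, so that nothing here measures the effect of losing Fkbp5 itself. The protocol text gives 4 mice per group, while the KO control group holds 3 libraries. The remaining 8 libraries, 4 wild-type (WT) control and 4 WT ethanol, enter here through the filter on low values, the shared estimate of spread and the test of the difference between genotypes, and their own response is given beside some results. One of them, WT ethanol replicate 4, has a title that reads WT and a genotype entry that reads KO, and it was kept as WT.

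Fkbp5 encodes FKBP51, a co-chaperone that sits in the HSP90 complex of the glucocorticoid receptor and lowers its affinity for hormone. The receptor itself switches on Fkbp5, which closes a short feedback loop. Hepatocytes oxidise ethanol to acetaldehyde through alcohol dehydrogenase in the cytosol and through the cytochrome P450 CYP2E1 in the endoplasmic reticulum, and mitochondrial ALDH2 carries acetaldehyde on to acetate. A binge raises circulating corticosterone, shifts the NADH balance of the hepatocyte and favours triglyceride storage. Xenobiotic receptors such as CAR, the metal sensor MTF1 and the clock repressors REV-ERB are among the regulators whose target genes are followed in ethanol-fed liver.

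The values are FPKM, fragments mapped to a transcript scaled for its length and for the depth of the library, as deposited, so that levels of different genes can be set side by side per unit of length. Depths estimated from the values ran from 24520000 to 31330000 fragments in the 7 KO libraries, with between 11873 and 13112 genes at 1 FPKM or more. The residual Fkbp5 signal, on chromosome 17 from 28398753 to 28486149 (GRCm38), was 1.07, 1.56 and 0.351 FPKM in KO control replicates 1 to 3 and 5.41, 4.97, 3.20 and 2.45 FPKM in KO ethanol replicates 1 to 4. All 4 ethanol values lay above all 3 control values, and the log2 difference of 1.33 did not pass the limma test (adjusted p = 0.0882). The exact permutation p, 2-sided, was 0.0571, the smallest that 35 splits of 3 against 4 libraries allow. Hepatocyte markers had summed levels of 28316 to 36812 FPKM in the controls and of 17926 to 35942 FPKM with ethanol. The low end of the second range is KO ethanol replicate 3, in which Alb, the albumin gene that hepatocytes express at the highest level, is listed at 0, while the other 6 libraries had 12627 to 19019 FPKM. KO control replicate 1 stood apart: the signal recognition particle RNA Rn7s1 was listed at 183764 FPKM there and at 0 in the others, and its 10 highest genes held 59.3% of all FPKM. Sex is not in the labels. Xist was 68.0 and 72.2 FPKM in KO control replicates 1 and 2 and 78.3 FPKM in KO ethanol replicate 3, and below 1 FPKM in the other 4, which expressed Y-linked genes. Females by this measure thus made up 2 of 3 control and 1 of 4 ethanol libraries. The difference within each sex is given below for Mt1, Mt2 and Bhmt only. Its size was also unlike between the sexes in other genes. For example, Igfbp1 differed by 2.25 log2 units among Xist-high and by 5.91 among Y-expressing libraries, and Ppara by -0.58 and -1.71.

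Across 13840 genes tested with limma on log2(FPKM + 1), 571 were called when the threshold was 0.05 on the p adjusted by Benjamini and Hochberg, of which 194 were higher and 377 lower with ethanol. That is 4.13% of all genes tested, 1.40% higher and 2.72% lower, and these shares are the background against which the counts for gene lists are read. The median log2 difference of all genes was -0.10, and 3000 genes had an unadjusted p under 0.05. The rises were larger than the falls. Of the genes called higher, 45 were at least 4-fold up and the median size of the change was 1.16 log2 units, while 14 of the genes called lower were at least 4-fold down and their median size was 0.72. The KO groups did not overlap in 193 of the 194 genes called higher and in 375 of the 377 called lower. Across all genes tested, 5.72% had every ethanol library above every control library and 15.2% had every one below. The scaling set how the calls divided. Genes called higher made up 34.0% of the calls from the deposited values, 59.2% after median-ratio scaling, 52.2% after quantile normalization and 94.6% after rescaling to a common sum, which moved the median of all genes to 0.17. Of the 194 genes called higher, 191 were also called with median-ratio scaling, and of the 377 called lower, 200 were.

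**Figure D1:**
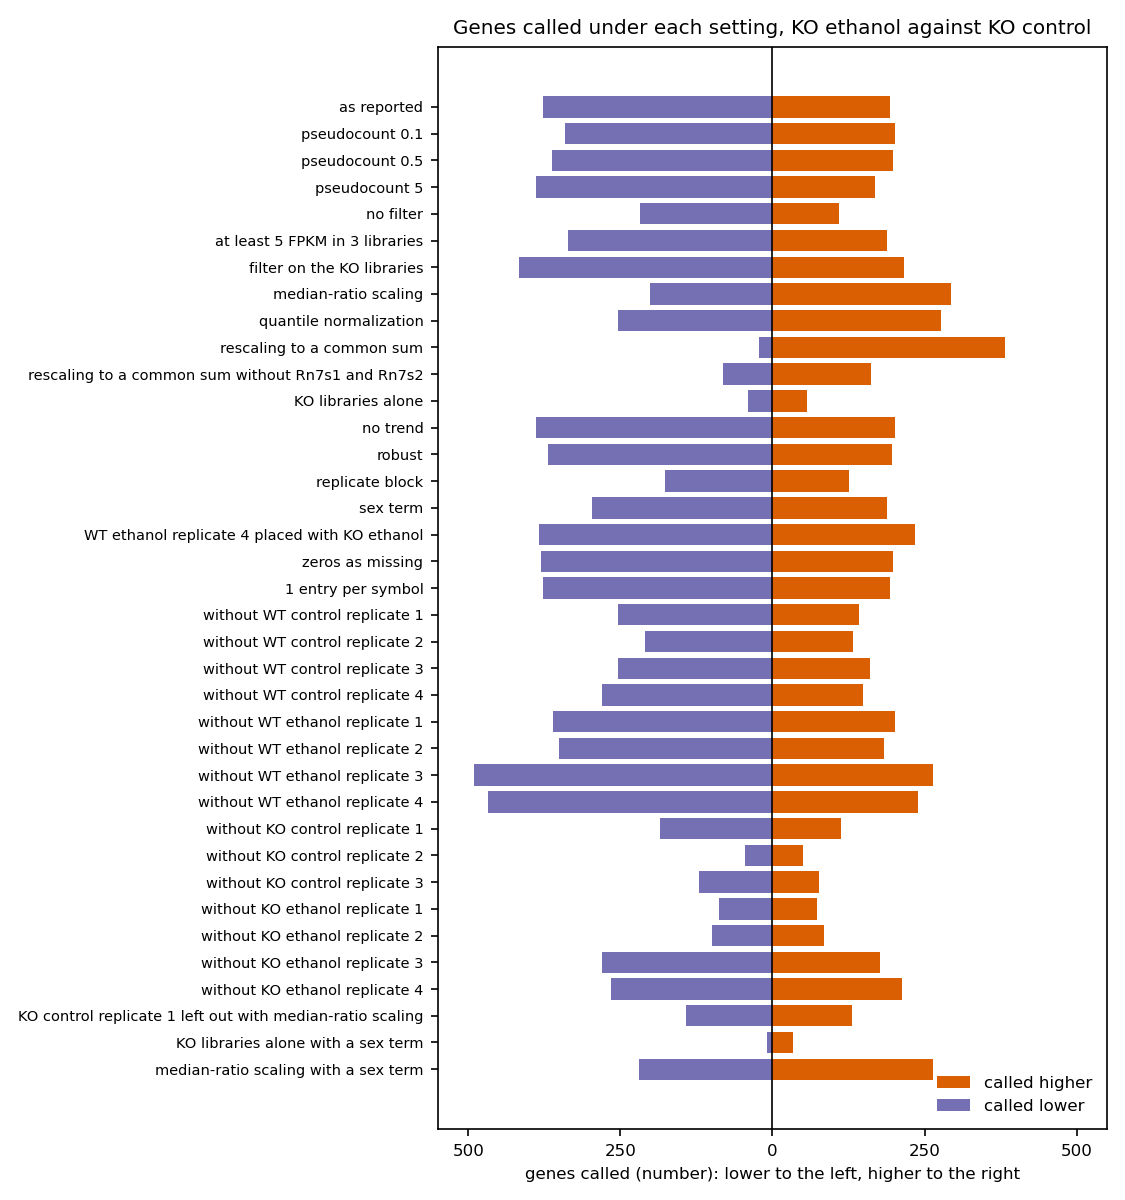
Number of genes called in KO ethanol against KO control under each setting, higher to the right (orange) and lower to the left (purple), with library weights (4140 calls) not drawn. The 571 calls of the first bar fell to 95 without KO control replicate 2, and rescaling to a common sum gave 382 higher and 22 lower.

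The count of calls depended on single libraries. Leaving out KO control replicates 1, 2 or 3 gave 298, 95 or 197 calls, and the number was 162, 184, 457 and 479 without KO ethanol replicates 1 to 4. In all 7 of these fits 47 of the genes called higher and 36 of those called lower were called again. Of the 77 called genes named below, provisional loci left out, 24 kept their call in all 7 fits. The other 53 lost it without KO control replicate 2, where the largest number was lost, and for most of them the highest adjusted p over the 7 fits is given where they are described. A sex term kept 148 of the 194 genes called higher and 238 of the 377 called lower, and a fit of the 7 KO libraries alone kept 52 and 37. Of the 77 called genes named, the fit of the KO libraries alone kept 19. The 7 fits that left out 1 KO library all kept the WT libraries in the estimate of spread.

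**Figure D2:**
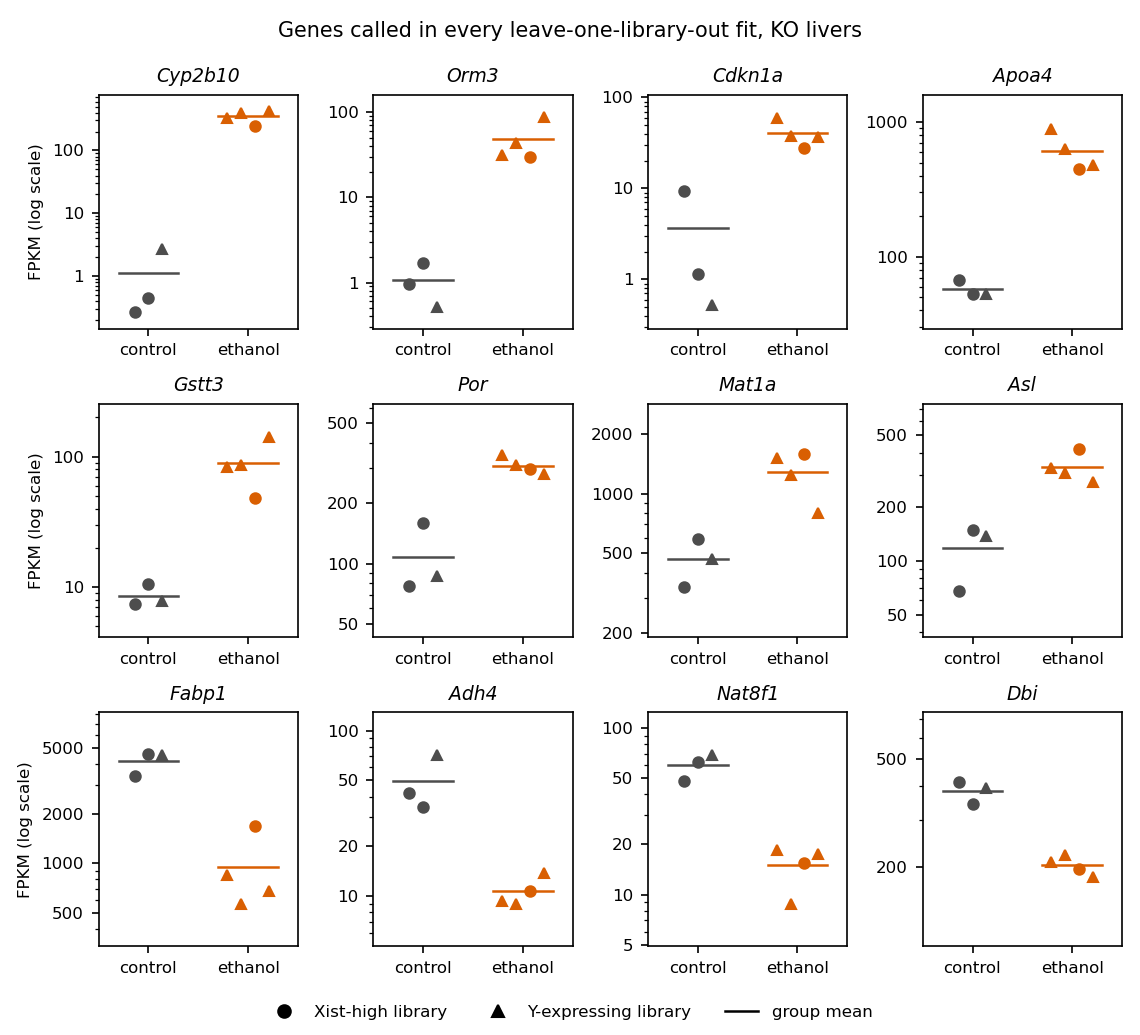
FPKM in each KO library (log scale) for 12 genes called in every fit that left out 1 KO library, with circles for Xist-high libraries, triangles for Y-expressing libraries and a line at the group mean. The ethanol libraries lie on 1 side of all control libraries in each panel, for example above 200 FPKM of Cyp2b10 against less than 5 FPKM in every control library.

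The largest rise of all was in drug metabolism. Cyp2b10, a P450 whose transcription follows activation of CAR, lies on chromosome 7 from 25897658 to 25926624 (GRCm38). It stood at 0.266, 0.451 and 2.67 FPKM in KO control replicates 1 to 3 and at 332, 398, 248 and 426 FPKM in KO ethanol replicates 1 to 4. Every ethanol liver was far above every control liver, and the log2 difference was 7.51 with an SE of 0.68 (limma adjusted p = 0.000387). Por, the reductase that passes electrons to all microsomal P450 enzymes, stood at 77.3, 159 and 86.8 FPKM in the controls and at 349, 311, 295 and 279 FPKM with ethanol, and rose by 1.58 log2 units (limma adjusted p = 0.0116). The groups were well apart, with KO control replicate 2 the highest control. Cyp3a13, a member of the CYP3A subfamily that PXR controls, went from 34.6, 29.6 and 24.7 FPKM to 91.9, 129, 108 and 51.0 FPKM (log2 1.59, limma adjusted p = 0.00810). Its lowest ethanol library, replicate 4, was still above the highest control. These 3 genes were called in all 7 fits that left out 1 KO library. Cyp2c29, a further CAR target, rose from 134, 199 and 329.6 FPKM to 1094, 1057, 372 and 1630.5 FPKM (log2 2.14, limma adjusted p = 0.0461). KO ethanol replicate 3 was close to the highest control there, and the call held in 1 of the 7 fits, with an adjusted p of up to 0.156 without KO control replicate 1. In all, 4 of 27 tested CAR and PXR targets rose and 0 fell, 14.8% against the background of 4.13%, and the median of the list was 0.87 log2 units, positive in 24 of 27.

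Conjugation and thiol defence genes moved in part. Gstt3, a theta-class glutathione transferase on chromosome 10 from 75774122 to 75781414, was 7.43, 10.5 and 7.90 FPKM in the controls and 83.2, 86.9, 48.3 and 142 FPKM with ethanol. The groups were several-fold apart, and the rise of 3.16 log2 units (SE 0.55, limma adjusted p = 0.0111) was called in all 7 fits. Gsta2, an alpha-class transferase, stood at 0.887, 2.65 and 6.24 FPKM against 59.8, 78.3, 12.1 and 58.3 FPKM. KO ethanol replicate 3, the Xist-high library, was the lowest of the ethanol livers, and the gene rose by 3.58 log2 units (limma adjusted p = 0.0310). Gsta4, which conjugates the lipid peroxidation product 4-hydroxynonenal, rose by 1.21 log2 units (limma adjusted p = 0.0440). The calls of Gsta2 and Gsta4 held in 2 and 0 of the 7 fits, with adjusted p values of up to 0.103 and 0.158 without KO control replicate 1, and reads shared between near-identical Gsta copies make the level of a single copy uncertain. Of 21 glutathione transferases tested 3 rose and 0 fell, with a list median of 0.97. In the NRF2 antioxidant list 1 of 31 tested genes was called, 3.23% against 4.13% of all genes, and the median was 0.11. That gene was Srxn1, which repairs hyperoxidised peroxiredoxins, at 4.49, 4.26 and 6.20 FPKM in the controls and 31.2, 30.6, 12.6 and 61.4 FPKM with ethanol (log2 2.36, limma adjusted p = 0.0374, up to 0.126 without KO control replicate 2). The quinone reductase Nqo1, a standard NRF2 target, stood at 1.07, 1.51 and 1.41 FPKM against 6.92, 8.77, 2.96 and 6.96 FPKM, without overlap, and its difference of 1.60 did not pass (limma adjusted p = 0.0876). Glrx, glutaredoxin, which reduces glutathionylated proteins, was named after its values were seen. It rose from 9.01, 13.9 and 8.82 FPKM to 40.8, 38.1, 38.0 and 20.9 FPKM (log2 1.60, limma adjusted p = 0.00485) and was called in all 7 fits.

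Among the enzymes that clear ethanol itself the RNA of 1 was called. Of 13 tested genes of ethanol and acetaldehyde oxidation 1 fell and 0 rose, and the list median was -0.08. Adh4, a class II alcohol dehydrogenase that also oxidises retinol, on chromosome 3 from 138415497 to 138430892, fell from 42.3, 34.4 and 71.6 FPKM to 9.35, 9.02, 10.8 and 13.8 FPKM. Every ethanol liver was below every control liver, the difference was -2.05 log2 units (SE 0.35, limma adjusted p = 0.0105), and the call held in all 7 fits. Cyp2e1 stood at 1607, 3183 and 2502 FPKM in the controls and at 2141, 1633, 2362 and 1452 FPKM with ethanol, and Aldh2 at 329.9, 402 and 405 FPKM against 412, 373, 392 and 340.3 FPKM. The groups overlapped in both genes, whose log2 differences were -0.33 and 0.00 (limma adjusted p = 0.514 and 0.987), and both were named after their values were seen. Cyp26b1, a hydroxylase that clears retinoic acid, went from 2.30, 2.81 and 3.26 FPKM to 20.3, 19.2, 5.33 and 17.6 FPKM, with KO ethanol replicate 3 the lowest ethanol library, and rose by 1.99 log2 units (limma adjusted p = 0.0129, up to 0.0553 without KO control replicate 2). Its relative Cyp26a1 stood at 1.71, 3.31 and 6.41 FPKM against 134, 109, 4.15 and 105 FPKM. The 3 Y-expressing ethanol livers were high and the Xist-high one lay inside the control range, and the difference of 3.59 did not pass (limma adjusted p = 0.10). The sulfotransferase Sult1e1, which inactivates estrogens, was listed at 0, 0 and 0.0382 FPKM in the controls and at 6.97, 37.6, 4.31 and 2.25 FPKM with ethanol. No fold is given against values of 0, and the call (limma adjusted p = 0.0397) held in 2 of the 7 fits.

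The metallothioneins Mt1 and Mt2, small cysteine-rich proteins that bind zinc and copper, rose together and from very uneven control levels. Both lie on chromosome 8 (GRCm38), Mt2 from 94172618 to 94173567 and Mt1 from 94179084 to 94180327. Metal response elements, which the zinc sensor MTF1 binds, were searched as TGCACNC and TGCGCNC on both strands. The RefSeq windows of GRCm38.p6 from 250 bases before to 50 bases after each start site, both on the plus strand, are shown because the 2 genes moved together, with matches in capitals.
Mt1 (chr8:94178839-94179138): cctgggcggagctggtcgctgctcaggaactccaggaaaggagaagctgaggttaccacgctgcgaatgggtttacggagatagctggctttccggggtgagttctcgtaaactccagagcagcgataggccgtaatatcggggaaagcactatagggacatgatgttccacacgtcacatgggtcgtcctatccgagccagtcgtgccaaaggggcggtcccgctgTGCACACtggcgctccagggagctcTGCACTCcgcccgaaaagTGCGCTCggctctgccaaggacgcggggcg
Mt2 (chr8:94172368-94172667): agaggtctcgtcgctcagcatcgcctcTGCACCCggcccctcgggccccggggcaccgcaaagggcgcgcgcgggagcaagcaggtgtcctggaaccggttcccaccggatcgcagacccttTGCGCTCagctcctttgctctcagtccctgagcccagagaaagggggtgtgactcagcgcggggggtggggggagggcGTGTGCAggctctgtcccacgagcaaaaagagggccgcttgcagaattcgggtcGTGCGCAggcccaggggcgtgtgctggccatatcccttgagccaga
The Mt1 window held 3 matches and the Mt2 window 4. Among 32851 windows of the same length, 25.7% held at least 1 match, 1.97% at least 3 and 0.517% at least 4. Of the 75 named genes with a window, 7 held at least 3 matches, and 4 of these 7 were genes that fell (Amotl2, Dbp, Irf1 and Lifr). A match is a description of these letters and not a measured binding site.

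In the livers, Mt1 stood at 138, 139 and 5.73 FPKM in KO control replicates 1 to 3 and at 1957, 2743, 696 and 1622 FPKM in KO ethanol replicates 1 to 4. Mt2 stood at 108, 53.7 and 2.05 FPKM against 1602, 2176, 374 and 1692 FPKM. The order of the libraries was alike in both genes at the low end: KO control replicate 3 was the lowest control and KO ethanol replicate 3 the lowest ethanol liver, which still exceeded every control. Mt1 rose by 4.95 log2 units (SE 1.08, limma adjusted p = 0.0274) and Mt2 by 5.53 (SE 1.32, limma adjusted p = 0.0374). Among Xist-high libraries, with 1 ethanol liver, the differences were 2.32 and 2.28, and among Y-expressing libraries, with KO control replicate 3 as the 1 control, 8.26 and 9.21. An interaction of sex and diet was not tested. The calls held in 3 and 2 of the 7 fits, with adjusted p values of up to 0.0766 and 0.116 without KO control replicate 3. Of 12 metallothionein and zinc transport genes tested these 2 rose and 0 fell, with a list median of 0.19.

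**Figure D3:**
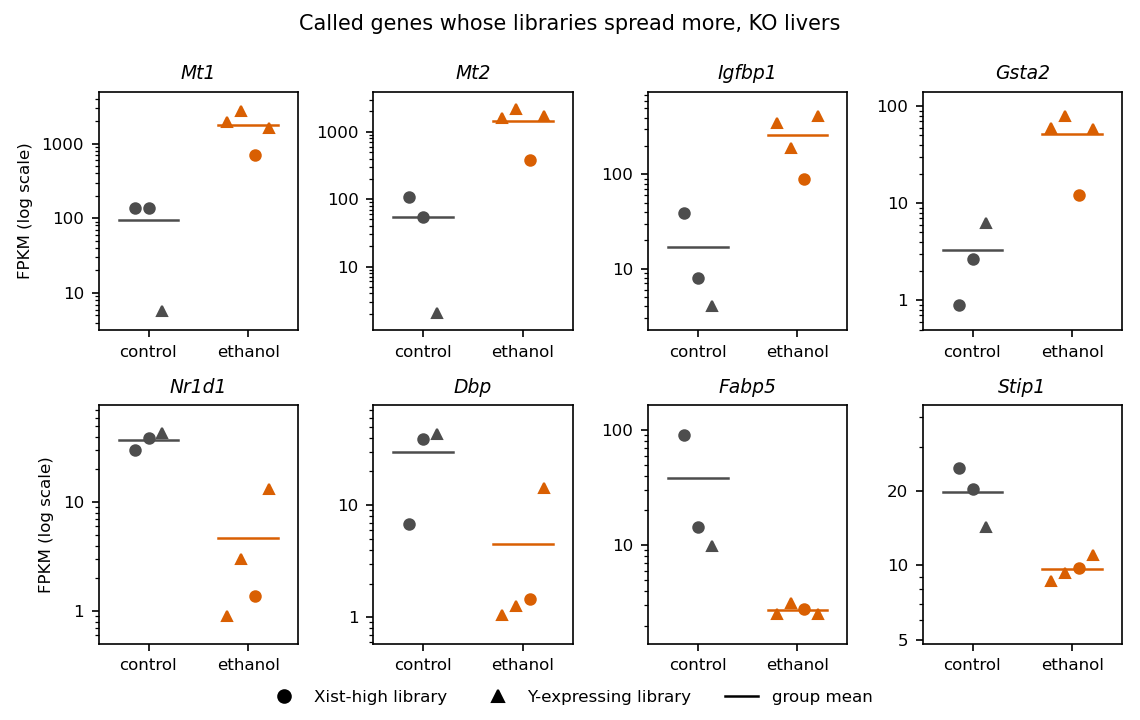
FPKM in each KO library (log scale) for 8 called genes that lost the call in at least 1 fit that left out 1 KO library. Circles mark Xist-high and triangles Y-expressing libraries, with a line at the group mean. In Mt1 and Mt2 the lowest control is the Y-expressing replicate 3 at 5.73 and 2.05 FPKM, and in Nr1d1 and Dbp the highest ethanol liver is replicate 4 at 13.3 and 14.2 FPKM.

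Targets of the glucocorticoid receptor formed the list with the highest share of calls among those described here. Of 28 tested, 8 rose and 0 fell, 28.6% against the background of 4.13%. The list median was 1.17 log2 units, positive in 26 of 28, and 1.27 and 1.43 with median-ratio scaling and with a common sum. The metallothioneins are 2 of these 8. Between 1 and 7 members were called when 1 KO library was left out, the lowest number without KO control replicate 2. Cdkn1a, the gene of p21, which holds cyclin-dependent kinases in check, lies on chromosome 17 from 29090979 to 29100722, on the same chromosome as Fkbp5. It was 9.43, 1.14 and 0.519 FPKM in the controls and 59.3, 38.1, 27.6 and 37.0 FPKM with ethanol. No ethanol liver came near the controls, of which replicate 1 was the highest, and the rise of 3.63 log2 units (SE 0.56, limma adjusted p = 0.00675) was called in all 7 fits. Cdk2, a kinase that p21 inhibits, was named after its values were seen and fell from 3.71, 3.11 and 3.28 FPKM to 1.38, 1.26, 2.25 and 1.67 FPKM (log2 -0.74, limma adjusted p = 0.0105), also in all 7 fits. Of 9 tested proliferation genes 0 were called.

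Igfbp1, which binds insulin-like growth factors and is secreted by hepatocytes during fasting and stress, lies on chromosome 11 from 7197787 to 7202546. It went from 39.1, 8.06 and 4.04 FPKM to 351, 188, 89.6 and 417 FPKM, with the Xist-high replicate 3 again the lowest ethanol liver and without overlap. The rise was 4.20 log2 units (limma adjusted p = 0.0134, up to 0.0711 without KO control replicate 2). Ddit4, an inhibitor of mTORC1, rose from 1.63, 0.661 and 1.23 FPKM to 33.3, 18.4, 10.9 and 43.3 FPKM (log2 3.51, limma adjusted p = 0.0134, up to 0.0711 without KO control replicate 2). Tsc22d3, the anti-inflammatory factor GILZ, was named after its values were seen and rose from 25.7, 18.1 and 12.8 FPKM to 47.0, 31.5, 36.5 and 29.5 FPKM (log2 0.93, limma adjusted p = 0.0397, up to 0.129 without KO control replicate 3). Its lowest ethanol liver, replicate 4, was just above the highest control. The other members called were Tat, tyrosine aminotransferase, and Cebpd, a transcription factor of the acute phase. Tat stood at 211, 141 and 111 FPKM against 571, 470.3, 239.5 and 1071 FPKM, close to the controls in replicate 3 (log2 1.77, limma adjusted p = 0.0413, up to 0.130 without KO control replicate 2). Cebpd stood at 1.45, 0.893 and 0.785 FPKM against 6.34, 5.80, 3.50 and 8.22 FPKM (log2 1.74, limma adjusted p = 0.0256, up to 0.0997 without KO control replicate 2). Both genes had the order of Igfbp1 among ethanol livers, with replicate 4 highest and replicate 3 lowest. The receptor gene Nr3c1 itself was 15.2, 16.2 and 14.8 FPKM in the controls and 10.4, 9.52, 13.7 and 14.7 FPKM with ethanol. Replicate 4 was just below the lowest control, and the difference of -0.34 did not pass (limma adjusted p = 0.289).

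Orm3, an orosomucoid that the liver secretes in the acute phase, lies on chromosome 4 from 63355280 to 63359511. It stood at 0.968, 1.68 and 0.519 FPKM in the controls and at 31.8, 43.7, 29.8 and 88.6 FPKM with ethanol. The groups were far apart in every library, and the difference was 4.49 log2 units (SE 0.66, limma adjusted p = 0.00528) and called in all 7 fits. The wider acute phase list was less uniform: 4 of 35 tested members rose, 2 of them the metallothioneins, and the median was 0.55. Lcn2, lipocalin-2, an iron-withholding protein, stood at 45.5, 7.97 and 1.49 FPKM against 195, 938, 322 and 18.1 FPKM. The groups overlapped through KO ethanol replicate 4, and the difference of 4.18 did not pass (limma adjusted p = 0.155). The serum amyloid gene Saa1 ranged from 15 to 77.5 FPKM in the controls and from 13.3 to 491 FPKM with ethanol, overlapping and not called (limma adjusted p = 0.856). Of the hepatokines 3 of 22 tested rose and 1 fell. Inhbb, a subunit of activin B, rose from 0.881, 1.02 and 0.558 FPKM to 6.16, 8.56, 5.82 and 4.19 FPKM (log2 1.96, limma adjusted p = 0.0163, up to 0.0610 without KO control replicate 3). Inhbc, the subunit of activin C, fell from 31.9, 27.9 and 18.5 FPKM to 7.85, 7.13, 14.1 and 7.22 FPKM (log2 -1.45, limma adjusted p = 0.0116, up to 0.0611 without KO control replicate 2). The 2 activin subunits of the same family thus moved in opposite directions, each without overlap of the groups. Tsku, the secreted protein tsukushi, rose from 4.33, 12.7 and 9.53 FPKM to 84.2, 77.4, 24.7 and 34.8 FPKM (log2 2.44, limma adjusted p = 0.0463, up to 0.159 without KO control replicate 1).

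In lipid handling a few genes of each list were called, and a change across whole lists was not tested. Fabp1, the liver fatty acid binding protein and one of the most abundant cytosolic proteins of the hepatocyte, lies on chromosome 6 from 71199888 to 71205023. It fell from 3379.7, 4577 and 4522 FPKM to 855, 568, 1686 and 679 FPKM. The highest ethanol liver, the Xist-high replicate 3, was below the lowest control, and the fall was -2.25 log2 units (SE 0.37, limma adjusted p = 0.00946) and called in all 7 fits. Dbi, which binds acyl-CoA, fell from 413, 343 and 391 FPKM to 209, 223, 198 and 185 FPKM (log2 -0.90, limma adjusted p = 0.0105), with little spread in either group and in all 7 fits. Fabp5 and Fabp7, binding proteins better known from skin and brain, stood in the controls at 91.3, 14.5 and 9.77 FPKM and at 5.45, 3.65 and 2.24 FPKM. With ethanol they were at 2.51, 3.14, 2.81 and 2.54 FPKM and at 0.433, 0.728, 1.43 and 0.936 FPKM. Fabp5 was highest in KO control replicate 1, and its fall of -2.73 log2 units (limma adjusted p = 0.0470) became -1.79 without that library and was not called (adjusted p = 0.156). Fabp7 fell by 1.32 (limma adjusted p = 0.0230, up to 0.0897 without KO control replicate 2). Of 20 tested fatty acid binding and uptake genes these 4 fell and 0 rose, 20.0% against 4.13%, while the list median of -0.07 was near that of all genes and became 0.05 with median-ratio scaling.

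Apoa4, an apolipoprotein of triglyceride-rich particles on chromosome 9 from 46240844 to 46243458, rose from 67.3, 53.1 and 52.7 FPKM to 884, 631, 447 and 478 FPKM. The controls were tight, every ethanol liver was several-fold above them, and the rise of 3.34 log2 units (SE 0.42, limma adjusted p = 0.00153) was called in all 7 fits. It was the 1 called gene among 29 apolipoprotein and VLDL genes, whose median was -0.07. Cidec, which fuses lipid droplets, rose from 0.446, 0.517 and 0.888 FPKM to 17.1, 9.28, 8.18 and 3.98 FPKM (log2 2.58, limma adjusted p = 0.0110, up to 0.0551 without KO control replicate 2). Pnpla2, the triglyceride lipase ATGL, rose from 12, 13.7 and 12 FPKM to 37.0, 26.8, 19.3 and 28.4 FPKM (log2 1.06, limma adjusted p = 0.0192, up to 0.0628 without KO control replicate 3). The groups did not overlap in either gene, and these were the 2 called among 17 lipid droplet and lipolysis genes.

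The elongases Elovl2 and Elovl5, which lengthen polyunsaturated fatty acids, were the 2 called among 25 fatty acid synthesis genes. Elovl2 fell from 163, 167 and 132 FPKM to 52.9, 26.9, 84.8 and 50.6 FPKM (log2 -1.60, limma adjusted p = 0.0349, up to 0.120 without KO control replicate 2), and Elovl5 from 183, 148 and 184 FPKM to 76.2, 49.9, 125 and 88.3 FPKM (log2 -1.07, limma adjusted p = 0.0422, up to 0.122 without KO control replicate 1). In both, KO ethanol replicate 3 was the highest of the ethanol livers, and the groups did not overlap. The list median was -0.53, negative in 18 of 25. Insig2, an endoplasmic reticulum protein that retains SREBP, rose from 59.9, 26.3 and 42.6 FPKM to 291, 151, 167 and 62.2 FPKM, with replicate 4 just above the highest control (log2 1.82, limma adjusted p = 0.0312, up to 0.130 without KO control replicate 2). The other 26 of 27 cholesterol synthesis genes were not called. The median of that list was -0.33, negative in 22 of 27, and became -0.03 after rescaling to a common sum. Ppara, the receptor that drives fatty acid oxidation, fell from 37.0, 55.2 and 46.7 FPKM to 21.6, 12.9, 29.8 and 8.82 FPKM (log2 -1.41, limma adjusted p = 0.0312, up to 0.124 without KO control replicate 2). Bdh1, which makes the ketone body 3-hydroxybutyrate, fell from 55.2, 79.9 and 61.1 FPKM to 29.2, 21.5, 43.8 and 28.1 FPKM (log2 -1.10, limma adjusted p = 0.0256, up to 0.108 without KO control replicate 2). KO ethanol replicate 3 was again the liver nearest to the controls in both genes. The other 31 of 33 genes of PPARα-driven oxidation and ketogenesis were not called. The list median of -0.24, negative in 25 of 33, became 0.11 after rescaling to a common sum. Crot, a peroxisomal carnitine acyltransferase named after its values were seen, fell from 145, 152 and 115 FPKM to 49.0, 37.8, 79.2 and 44.6 FPKM (log2 -1.41, limma adjusted p = 0.00954) and was called in all 7 fits.

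Amino acid catabolism and the methionine cycle held several rises of moderate size. Asl and Arg1, the last enzymes of the urea cycle, lie on chromosome 5 from 130011498 to 130024331 and on chromosome 10 from 24915207 to 24927470. Asl stood at 67.3, 148 and 138 FPKM against 329, 308, 417 and 273 FPKM, and Arg1 at 249, 289.6 and 311 FPKM against 626, 602, 571 and 429 FPKM. Neither overlapped between the groups, and the rises of 1.55 and 0.96 log2 units (limma adjusted p = 0.0105 and 0.00947) were called in all 7 fits. Cps1, the entry enzyme of the cycle, stood at 468, 492 and 696 FPKM against 1067, 972, 975 and 634 FPKM. It overlapped through KO ethanol replicate 4, and its difference of 0.72 did not pass (limma adjusted p = 0.0764). Aass, the first enzyme of lysine breakdown, rose from 29.9, 47.9 and 59.0 FPKM to 151, 94.8, 125 and 169 FPKM (log2 1.56, limma adjusted p = 0.0146, up to 0.0553 without KO control replicate 2). Sdsl, a serine dehydratase-like enzyme, rose from 3.26, 2.86 and 3.25 FPKM to 11.3, 9.71, 10.3 and 6.59 FPKM (log2 1.32, limma adjusted p = 0.0312, up to 0.109 without KO control replicate 2). With Tat, 5 of 31 tested genes of the urea cycle and amino acid breakdown rose and 0 fell, 16.1% against 4.13%, with a list median of 0.29. Between 2 and 5 were called when 1 KO library was left out.

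Mat1a and Mat2a both make S-adenosylmethionine, the first as the enzyme of the adult hepatocyte and the second as that of most other cells. Mat1a, on chromosome 14 from 41105008 to 41124428, rose from 341, 588 and 471 FPKM to 1512, 1242, 1575 and 799 FPKM. It did not overlap between groups, and the rise of 1.44 log2 units (SE 0.24, limma adjusted p = 0.0105) was called in all 7 fits. Mat2a rose from 23.1, 18.3 and 15.2 FPKM to 34.1, 33.9, 29.0 and 31.0 FPKM (log2 0.75, limma adjusted p = 0.0316, up to 0.108 without KO control replicate 3). The level of Mat1a stayed far above that of Mat2a in every library. Bhmt, which remethylates homocysteine with betaine, stood at 142, 155 and 683 FPKM against 1479.7, 929.5, 1643 and 726 FPKM. The Y-expressing control was close to the lowest ethanol liver, and the difference was 3.46 among Xist-high and 0.55 among Y-expressing libraries (all libraries 2.19, limma adjusted p = 0.0485, up to 0.175 without KO control replicate 2). Cbs, which diverts homocysteine to cysteine, fell from 143, 116 and 111 FPKM to 66.4, 57.1, 73.7 and 97.1 FPKM (log2 -0.76, limma adjusted p = 0.0388, up to 0.135 without KO control replicate 1), and was not called with median-ratio scaling (adjusted p = 0.101). Csad, the decarboxylase that leads from cysteine to taurine, fell from 31.7, 52.7 and 59.8 FPKM to 8.57, 12.9, 11.7 and 8.33 FPKM (log2 -2.08, limma adjusted p = 0.0226, up to 0.0916 without KO control replicate 2). Of 26 methionine and one-carbon genes tested 3 rose and 2 fell. Aprt, which salvages adenine, was named after its values were seen and rose from 9.07, 11.8 and 9.00 FPKM to 25.0, 23.9, 24.5 and 21.1 FPKM (log2 1.17, limma adjusted p = 0.00364), in all 7 fits.

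Among clock genes the REV-ERB genes Nr1d1 and Nr1d2 and the PAR-bZIP gene Dbp were called. Nr1d1, the repressor REV-ERBα on chromosome 11 from 98767932 to 98775377, fell from 30.1, 39.1 and 43.3 FPKM to 0.905, 3.02, 1.38 and 13.3 FPKM. The fall was largest in ethanol replicates 1 to 3, replicate 4 was the highest, and the groups did not overlap (log2 -3.24, SE 0.56, limma adjusted p = 0.0105). Without KO control replicate 2 its adjusted p was 0.050. Nr1d2, which encodes REV-ERBβ, fell from 15.9, 20.4 and 19.4 FPKM to 6.18, 10.3, 6.51 and 14.4 FPKM (log2 -0.98, limma adjusted p = 0.0290, up to 0.109 without KO control replicate 2). Dbp, a PAR-bZIP activator that CLOCK and BMAL1 drive, stood at 6.84, 39.0 and 43.3 FPKM against 1.05, 1.27, 1.46 and 14.2 FPKM. It was called (log2 -2.73, limma adjusted p = 0.0433, up to 0.159 without KO control replicate 2) although the groups overlapped, since KO ethanol replicate 4 exceeded KO control replicate 1. Arntl, the gene of BMAL1, which REV-ERB represses, was 4.08, 0.760 and 0.651 FPKM against 5.85, 3.58, 5.94 and 0.779 FPKM, and Per2 was 1.79, 5.29 and 3.61 FPKM against 3.79, 4.47, 6.14 and 8.11 FPKM. The groups of both overlapped, and neither passed (limma adjusted p = 0.355 and 0.263), and both were named after their values were seen. KO control replicate 1 was high in Arntl and low in Dbp and Per2 relative to the other controls. Of 22 clock genes tested 3 fell and 0 rose, and the number that fell was 0 without KO control replicate 2 and 5 without KO control replicate 1. The list median was 0.24, positive in 14 of 22. The time of day at which each liver was collected is not in the labels.

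Fkbp5 itself belongs to the HSP90 machinery, whose co-chaperone list held 3 falls and 0 rises among 24 tested genes (12.5%, list median -0.39). Stip1, the adaptor HOP that bridges HSP70 and HSP90, on chromosome 19 from 7020696 to 7040026, fell from 24.7, 20.4 and 14.3 FPKM to 8.67, 9.30, 9.78 and 11.0 FPKM (log2 -0.93, SE 0.17, limma adjusted p = 0.0134, up to 0.0698 without KO control replicate 2). Fkbp4, the gene of FKBP52, which counters FKBP51 in the receptor complex, fell from 28.9, 38.8 and 35.8 FPKM to 15.7, 16.3, 21.4 and 21.0 FPKM (log2 -0.86, limma adjusted p = 0.0461). Dnajb1, an HSP40 co-chaperone, fell from 7.01, 5.94 and 3.80 FPKM to 3.01, 2.97, 3.18 and 1.77 FPKM (log2 -0.81, limma adjusted p = 0.0498). The groups did not overlap in these genes, and Fkbp4 and Dnajb1 kept their call in 0 and 1 of the 7 fits (adjusted p up to 0.161 and 0.174, without KO control replicates 2 and 1). With median-ratio scaling 1 of the 24 was called, and the list median was -0.28. Ahsa2, a relative of the HSP90 ATPase activator AHA1 that was named after its values were seen, fell from 17.8, 16.0 and 13.5 FPKM to 8.82, 8.28, 9.29 and 7.69 FPKM (log2 -0.81, limma adjusted p = 0.00947) and was called in all 7 fits. The chaperones themselves did not pass. Hsp90ab1 was 202, 213 and 160.5 FPKM against 123, 135, 112 and 125 FPKM without overlap (log2 -0.62, limma adjusted p = 0.0628). Hspa8 and Hsp90aa1 overlapped, with differences of -0.70 and -0.52 (limma adjusted p = 0.225 and 0.257).

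Of 10 hepatocyte markers tested 0 were called, with a list median of 0.16 and a positive difference in 6. The genes that follow in this paragraph come from the largest falls, from other lists or from values already seen, and form no list of their own. Lifr, the receptor of leukemia inhibitory factor on chromosome 15 from 7090615 to 7197489, was named after its values were seen and fell from 91.2, 90.8 and 112 FPKM to 39.9, 32.3, 29.7 and 34.7 FPKM (log2 -1.50, SE 0.15, limma adjusted p = 0.000387). Nat8f1, an N-acetyltransferase family gene, fell from 48.2, 62.9 and 69.1 FPKM to 18.6, 8.84, 15.5 and 17.6 FPKM (log2 -1.95, limma adjusted p = 0.000745), and Cyp2c67 from 85.1, 81.0 and 126 FPKM to 37.3, 18.2, 21.5 and 16.2 FPKM (log2 -2.06, limma adjusted p = 0.0110). These 3 genes were called in all 7 fits and none overlapped between groups. Hsd3b2, a steroid dehydrogenase, fell from 8.97, 10.2 and 38.4 FPKM to 1.28, 1.08, 1.70 and 2.32 FPKM (log2 -2.68, limma adjusted p = 0.0214, up to 0.0677 without KO control replicate 3). Cebpa, a factor that maintains the differentiated hepatocyte, fell from 75.2, 139 and 139.5 FPKM to 46.6, 38.1, 68.9 and 50.4 FPKM (log2 -1.17, limma adjusted p = 0.0487, up to 0.169 without KO control replicate 2). Of 23 hepatocyte transcription factors tested Cebpa fell and Cebpd rose.

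Of 16 pericentral hepatocyte genes 3 fell and 0 rose (18.8% against 4.13% of all genes), with a list median of -0.31. Of 16 periportal genes 4 rose and 0 fell (25.0%), with a median of 0.37. The pericentral falls depended on the scaling: 1 fell with median-ratio scaling. With a common sum 0 fell and 1 rose, at a median of -0.01, while 4 periportal genes still rose, at 0.71. When 1 KO library was left out, 0 to 3 pericentral genes fell and 3 to 5 periportal genes rose. The pericentral genes called included Gulo, which in mice makes vitamin C, and Rgn, a lactonase of the same pathway. Gulo fell from 96.9, 113 and 119 FPKM to 65.4, 41.2, 69.0 and 66.2 FPKM (log2 -0.87, limma adjusted p = 0.0276). Rgn fell by 1.05 log2 units (limma adjusted p = 0.0405), and in both every ethanol liver was below every control. The calls of Gulo and Rgn held in 3 and 1 of the 7 fits (adjusted p up to 0.102 and 0.126 without KO control replicate 2). The periportal genes called were Asl, Arg1, Sdsl and Apoa4. Glul, glutamine synthetase, the classical marker of the innermost pericentral hepatocytes, was 268, 312 and 214 FPKM against 227, 219.9, 302 and 158 FPKM, overlapping and not called (limma adjusted p = 0.616), and was named after its values were seen. Whether the share of hepatocytes of a zone or the RNA per cell changed cannot be told apart in bulk liver.

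Interferon-stimulated genes were lower with ethanol as a list, with few single calls. All 34 tested members had a negative difference, the median was -0.79, and 4 fell while 0 rose (11.8% against 4.13%). Irf1, a transcription factor of interferon signalling, fell from 15.5, 13.3 and 9.54 FPKM to 4.40, 4.92, 6.54 and 5.95 FPKM (log2 -1.08, limma adjusted p = 0.0385). The groups did not overlap, and KO control replicate 1 was the highest control. Reads shared between guanylate binding protein copies make single levels uncertain. Further calls were Rtp4 and Gbp6, at log2 -1.26 and -1.33 (limma adjusted p = 0.0455 and 0.0461), and the related guanylate binding protein gene Gbp10, named after its values were seen, fell from 4.22, 2.80 and 2.06 FPKM to 0.322, 0.109, 0.641 and 0.592 FPKM (log2 -1.49, limma adjusted p = 0.0131, up to 0.0553 without KO control replicate 2). Irf1, Rtp4 and Gbp6 kept their calls in 1, 2 and 0 of the 7 fits, with adjusted p values of up to 0.130, 0.164 and 0.168 without KO control replicate 1. Without that library 0 of the 34 were called and the median was -0.41. With median-ratio scaling 2 were called and with a common sum 0, at medians of -0.68 and -0.48.

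Markers of resident macrophages had mostly negative differences in the same libraries, without a call. The 15 Kupffer cell genes summed to between 130.1 and 585 FPKM in the controls and to between 83.1 and 248 FPKM with ethanol, none was at 0 in all KO libraries, 12 of 14 tested had a negative difference, and 0 were called. Their median of -0.90 became -0.45 without KO control replicate 1. Clec4f, which in mice marks Kupffer cells, was 54.4, 22.9 and 16.9 FPKM against 10.4, 7.23, 23.0 and 11.7 FPKM, and Adgre1, the F4/80 antigen, was 11.9, 4.43 and 2.47 FPKM against 0.751, 0.781, 2.51 and 5.30 FPKM. Both overlapped, both were highest in KO control replicate 1, and neither passed (limma adjusted p = 0.132 and 0.207). Class II and dendritic cell genes summed to 77.3 to 122 FPKM against 24.8 to 152 FPKM, B cell and plasma cell genes to 33.4 to 160.5 FPKM against 11.6 to 19.4 FPKM, and red cell genes to 501 to 1113 FPKM against 163 to 941 FPKM. The part of these cell types in the fall of interferon genes was not tested. Neutrophil genes gave no calls among 5 tested, and 9 of the 15 listed were below 1 FPKM in every KO library.

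Among matrix genes Col3a1, a fibrillar collagen on chromosome 1 from 45311538 to 45349706, fell from 5.07, 2.45 and 2.94 FPKM to 0.697, 0.462, 0.684 and 1.47 FPKM (log2 -1.28, SE 0.24, limma adjusted p = 0.0146) and was called in all 7 fits. It was the 1 called gene of 20 in the fibrosis and matrix list. Colec11, a collectin that stellate cells express, fell from 15.8, 14.8 and 11.0 FPKM to 6.37, 4.48, 8.69 and 6.47 FPKM (log2 -1.0, limma adjusted p = 0.0487, up to 0.152 without KO control replicate 2). The groups did not overlap in either gene. Beside them, the 15 stellate and fibroblast markers summed to between 114 and 157 FPKM in the controls and to between 91.7 and 122 FPKM with ethanol, with a median of -0.37, and their part in these falls was not tested.

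CXCL1 and Hippo signalling are named in the title of the study. The neutrophil chemokine gene Cxcl1 was 2.77, 0.326 and 2.09 FPKM in KO controls and 1.75, 24.4, 1.44 and 1.16 FPKM in KO ethanol livers. One ethanol liver, replicate 2, stood high and the others lay inside the control range, so that the difference of 0.82 (exact permutation p = 0.629, 2-sided) became -0.03 without it. Of 12 chemokines tested 0 were called. In the Hippo list 1 of 20 tested genes was called. Amotl2, an angiomotin that holds YAP out of the nucleus and is also a YAP target, fell from 6.91, 9.35 and 10.0 FPKM to 5.95, 4.45, 3.76 and 3.72 FPKM (log2 -0.84, limma adjusted p = 0.0322, up to 0.120 without KO control replicate 2). Wwtr1, the gene of the coactivator TAZ, was 3.01, 3.0 and 3.01 FPKM against 4.89, 4.65, 4.57 and 4.79 FPKM. Its groups were tight and did not overlap, and the difference of 0.51 did not pass with the values as deposited (limma adjusted p = 0.0699) but did with median-ratio scaling (adjusted p = 0.0379). Of 16 YAP targets 1, again Amotl2, was called, and the list median was -0.18.

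Genes of cytoplasmic ribosomal proteins shifted by a small amount in the same direction. Of 76 tested, 75 had a negative difference, with a median of -0.27 and a range from -0.55 to 0.01, and 3 fell (3.95% against 4.13%). Rpl37a, for example, stood at 154, 159.6 and 146 FPKM against 113, 120.2, 113 and 105 FPKM (log2 -0.44, limma adjusted p = 0.0374), and Rpl23a and Rpl26 were the other 2 called. The groups of Rpl37a did not overlap, and all 3 calls were lost in each of the 7 fits that left out 1 KO library. With median-ratio scaling 0 were called at a median of -0.14, and with a common sum the median was 0.08, so that the direction depended on the scaling. In WT livers the list median was 0.17. The 5S ribosomal RNA entries, near-identical copies whose reads cannot be assigned to a single locus, had negative differences of -2.43 to -1.74 log2 units in all 27 tested. Of these 19 fell with the values as deposited. The count rested on single libraries and on the setting. It was 27 without KO control replicate 1, 2 without KO ethanol replicate 4 and 0 without any 1 of the other 5 KO libraries, and it was 1 with median-ratio scaling and 0 with a common sum or with a sex term. Rn5s, one of them, was 59.1, 291 and 168 FPKM against 36.1, 46.5, 31.0 and 46.1 FPKM (log2 -1.83, limma adjusted p = 0.0422, up to 0.164 without KO control replicate 2). The controls differed several-fold among themselves there, with KO control replicate 1 lowest, and the WT median of these entries was 0.64.

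**Figure D4:**
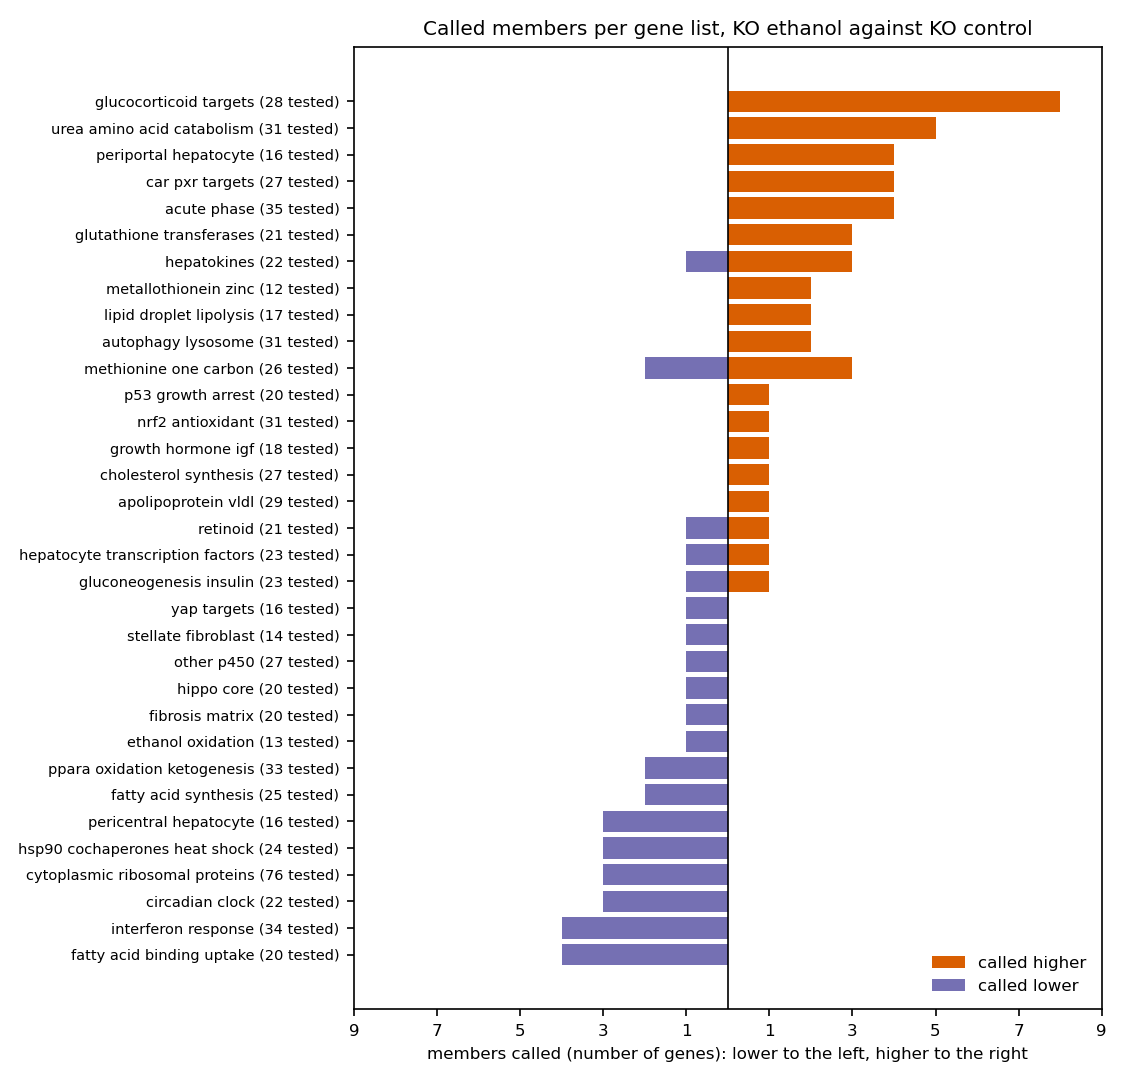
Members called higher (orange, right) and lower (purple, left) in each gene list with at least 1 call, with the number of members tested in brackets. Glucocorticoid receptor targets held 8 calls, all higher, and the interferon and fatty acid binding lists 4 each, all lower.

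Several processes that ethanol studies often follow held no call among the genes tested with limma: 0 of 29 genes of the unfolded protein and integrated stress response, 0 of 41 complement and coagulation genes, 0 of 43 subunits of oxidative phosphorylation, 0 of 35 proteasome genes, 0 of 27 bile acid genes, 0 of 25 genes of glycolysis, fructose and glycogen, 0 of 24 iron genes and 0 of 24 genes of LPS and interleukin-1 sensing. Their list medians lay between -0.33 (complement and coagulation) and 0.27 (iron). Among autophagy and lysosome genes 2 of 31 rose. Wipi1, which acts in autophagosome formation, rose by 0.98 log2 units and Ctsl, the protease cathepsin L, by 0.73 (limma adjusted p = 0.0316 and 0.0485, up to 0.126 and 0.149 without KO control replicate 2). Immediate early genes had a list median of 0.52, positive in 16 of 17, with 0 calls. The oncogene Myc was 0.931, 0.799 and 0.902 FPKM against 5.12, 4.46, 4.36 and 8.05 FPKM without overlap (log2 1.76, limma adjusted p = 0.0671). Gadd45b, a stress and CAR target, was 2.69, 1.77 and 0.266 FPKM against 19.7, 12.2, 4.35 and 18.9 FPKM, also without overlap (log2 2.48, limma adjusted p = 0.0516). Ptp4a1, a phosphatase of regenerating liver named after its values were seen, rose from 21.8, 23.9 and 17.4 FPKM to 80.6, 93.5, 61.6 and 79.4 FPKM (log2 1.85, SE 0.20, limma adjusted p = 0.000623), in all 7 fits.

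A further group of rises came from loci with provisional symbols. Of the 45 genes called at least 4-fold higher, 24 carry such symbols. They lie on 12 chromosomes, rose by 2.07 to 5.24 log2 units, and 4 of them are protein coding in RefSeq. Gm40525 on chromosome 9 stood at 42.1, 21.0 and 22.5 FPKM in the controls and at 1348, 1608, 899.7 and 629 FPKM with ethanol (log2 5.23, limma adjusted p = 0.000387). For 19 of the other 23 loci the ratio to Gm40525 stayed within 1.1 times across KO ethanol replicates 1 to 3, although the loci lie on different chromosomes. KO ethanol replicate 4 departed from that ratio at several of them: Gm42035 on chromosome 8 was 1567, 1886 and 1025 FPKM in replicates 1 to 3 and 205 FPKM in replicate 4. Shared sequence among these loci was not tested. Of the 24, 16 were called in all 7 fits.

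**Figure D5:**
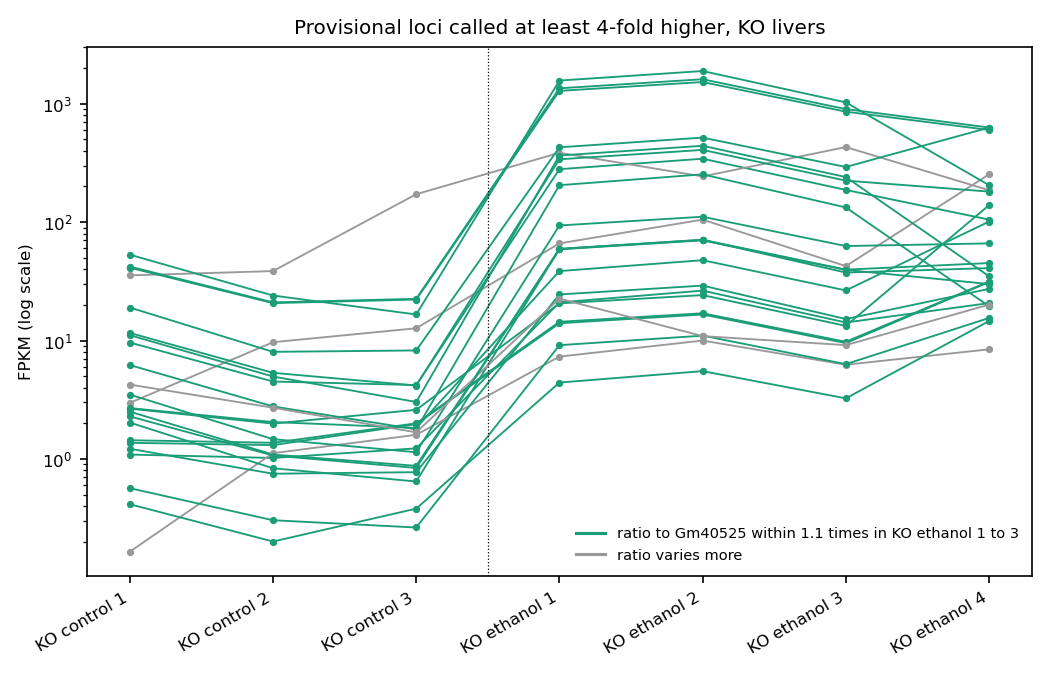
FPKM (log scale) of the 24 provisional loci called at least 4-fold higher, across the 7 KO libraries, with a dotted line between diets. Green lines keep their ratio to Gm40525 within 1.1 times in KO ethanol replicates 1 to 3 and run in parallel there, grey lines vary more, and several lines cross in KO ethanol replicate 4.

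Whether the KO response differed from that of WT livers was asked through the interaction term. With limma 0 of 13840 genes were called, the smallest adjusted p was 0.309, and 553 had an unadjusted p under 0.05, so that no gene is shown here to respond differently in the knockout. Of the genes called in KO, 192 of 194 higher and 332 of 377 lower had the same sign in WT, and 137 and 206 were also called there. The matching shares over all genes tested are not given, so these counts stand without a background and are not read as shared responses. The WT libraries also entered the spread used for the KO calls. The 5S ribosomal RNA entry n-R5s133 had an unadjusted limma interaction p of 0.00109 (adjusted p = 0.411). Outside the 5S entries, the lowest unadjusted interaction p among the genes described here was that of Ren1, renin. Ren1 lies on chromosome 1 from 133350674 to 133360320. It stood at 0.792, 4.01 and 1.06 FPKM in KO controls and at 18.8, 5.31, 42.9 and 42.3 FPKM in KO ethanol livers, without overlap, and rose by 3.06 log2 units (SE 0.54, limma adjusted p = 0.0114), in all 7 fits. In WT livers Ren1 averaged 0.0655 FPKM with the control diet and 0.117 FPKM with ethanol, far below the 1 FPKM added before the log. The WT difference of 0.07 is therefore a value near the floor and does not measure a lack of response. KO controls, at a mean of 1.95 FPKM, were already above WT controls. The interaction of 3.0 had an unadjusted limma p of 0.00130 and an adjusted p of 0.411. Without KO control replicate 1, 43 genes passed the interaction test. For the strongest genes the responses stood side by side at 7.51 in KO and 6.10 in WT for Cyp2b10, 3.34 and 2.02 for Apoa4, 4.49 and 3.25 for Orm3, 3.63 and 3.41 for Cdkn1a and -2.05 and -1.96 for Adh4, and none of these differences passed (limma adjusted p = 1.00 for each).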

How the data were processed

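Per the labels' protocols, livers were snap-frozen, and their total RNA was sequenced on a NextSeq instrument. The authors deposited FPKM values per gene, made with TopHat, Cufflinks and Cuffdiff per the submitters' processing notes, whose versions are not given in the sources used here. Those notes list mm9. The positions in the table overlapped the RefSeq position on GRCm38 for 99.53% of the 41268 symbols with a unique match, and coordinates are given on GRCm38. FPKM are not counts, and the fragments per library given are estimated from the steps between low values. Groups follow the titles, and nothing in the labels says which libraries share a litter or day, so the p-values cover only the variation among these libraries, which may be technical. Of 45861 genes, the 13840 at 1 FPKM or more in at least 3 libraries were tested on log2(FPKM + 1) with limma 3.58.1 in R 4.3.3, with 4 group means over 15 libraries, a trended variance prior and Benjamini-Hochberg adjustment over all genes tested. Log2 differences on this scale understate the change of low genes. Cxcl1 and Fkbp5 were also tested by exact permutation in scipy 1.17.1. The fit was also run on simulated data with independent normal noise and planted changes. Those data held no sex difference and no shift of a whole library, so they cannot show how the calls depend on either. The members, gene lists and tests were chosen with earlier results of these data known. Genes could be named if they were Fkbp5, Cxcl1, Xist or Alb, among the 12 largest rises or 12 largest falls called without overlap (provisional symbols left out), among the 4 called members of a list with the lowest p or, with fewer than 2 called, its 2 uncalled members with the lowest p, or among the 4 called genes with the lowest interaction p. The text names a subset. The genes added after their values were seen were Cyp2e1, Aldh2, Tat, Crot, Bhmt, Hspa8, Hsp90aa1, Lifr, Gbp10, Ptp4a1, Clec4f, Glrx, Aprt, Hsp90ab1, Rn5s, Saa1, Adgre1, Nr3c1, Tsc22d3, Ahsa2, Cdk2, Arntl, Per2 and Glul, together with the provisional loci shown. Alternatives covered pseudocount, filter, scaling, variance model, sex, a replicate block, the label conflict and each library left out. Some results are not reported here.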

Additional observations from a re-analysis of the deposited data

Results flagged for a closer look

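Among the 97 genes described above, 9 had 1 KO ethanol library far from the other 3, by the gap to its nearest neighbour relative to the range of the group. Chance alone flags about 1 in 20 such groups. KO ethanol replicate 2 stood apart in 3 genes: Cxcl1 was 24.4 FPKM there and 1.16 to 1.75 FPKM in the others, Sult1e1 was 37.6 FPKM against 2.25 to 6.97 FPKM, and Gulo was 41.2 FPKM against 65.4 to 69.0 FPKM. KO ethanol replicate 4 stood apart in 4 genes. The clock genes Nr1d1 and Dbp were 13.3 and 14.2 FPKM there, against 0.905 to 3.02 FPKM and 1.05 to 1.46 FPKM in the others. Glrx was 20.9 FPKM against 38.0 to 40.8 FPKM, and Dnajb1 was 1.77 FPKM against 2.97 to 3.18 FPKM. KO ethanol replicate 3, the Xist-high library, had 14.1 FPKM of Inhbc against 7.13 to 7.85 FPKM and 78.3 FPKM of Xist against 0.0932 to 0.658 FPKM.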

How the results depend on the processing

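Of the 77 called genes named, 0 changed the sign of their difference in any of the 37 settings run in which they were tested. That count does not cover the other calls or the gene lists. The median of the cytoplasmic ribosomal protein list, for example, went from -0.27 to 0.08 with a common sum. The 571 calls became 327 without the filter on low values, 97 in the KO libraries alone, 244 after rescaling to a common sum without Rn7s1 and Rn7s2, 4140 with library weights and 273 without KO control replicate 1 under median-ratio scaling. A fit of the KO libraries alone with a sex term, chosen after seeing the data, gave 42. With 1 library left out the count ran from 95 to 754, and the cause of these changes was not tested. The residuals of same-numbered KO control and KO ethanol libraries correlated at -0.18, -0.07 and -0.25. Each such pair joins an Xist-high and a Y-expressing library, so these values cannot tell whether the numbers pair the libraries. A replicate block gave 303 calls. The interaction count of 0 became 1 without the filter, 7 with library weights and 39 without KO control replicate 1 under median-ratio scaling, and ran from 0 to 43 with 1 library left out. With WT ethanol replicate 4 moved to the KO group 618 genes were called. Of the 77 called genes named (provisional loci left out), 19 were called in the KO libraries alone and 60 with median-ratio scaling. The number was 49 with a common sum, 57 with a sex term, 74 with a pseudocount of 0.1 and 41 without the filter. Depth in reads per gene is not given, which limits what can be said of genes near 1 FPKM.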

Other observations

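Among 112 tested ribosomal protein pseudogenes 8 were called lower and 0 higher, beside 2.72% lower and 1.40% higher of all genes tested. This count is from the values as deposited and was not repeated under other scalings or with libraries left out. The male-biased and female-biased liver lists had 0 calls among 17 and 26 tested genes with limma in the fit without a sex term. Their summed levels ranged from 641 to 5174 FPKM and from 116 to 2051 FPKM over the 3 control livers. With a sex term 4 male-biased genes were called lower and 0 higher, and the list median moved from -0.52 to -1.68. In the female-biased list 2 were then called higher and 1 lower, and the median moved from -0.34 to 0.65.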
